A study of Saccharomyces cerevisiae with 10 samples.

Results

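Chromosome XIII of budding yeast is followed here across 5 lines, which the labels name MA-A3, MA-A0, MA-A1, MA-A8 and MA-A4, gene by gene along both arms. Members are the genes of the value table whose systematic name begins with YML (left arm) or YMR (right arm), 446 in all. Left out are 28 of them, which are ribosomal protein genes of the cytosol and mitochondria and 11 further named genes. This left 418 members of 5706 genes, 121 on the left arm and 297 on the right, and no member had more than 1 probe row. Values on at least 8 arrays were present for 399 members (121 left, 278 right), and 376 had values on all 10. Of the other 19 members 17 had no value and 2 had 1 value, and all 19 lie on the right arm between YMR054W and YMR131C, among them FET3, ARG7, ILV2, ADH3 and YKU80. The chromosome was selected on its MA-A3 values, since its genes were known to be shifted in that line, and several of the genes left out were picked by their high MA-A3 values. The shift is therefore described without a test.

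MA stands for mutation accumulation, in which lines are carried through repeated narrow bottlenecks so that mutations persist with little selection. The labels give each line by name alone, with no genotype, treatment, growth stage or ancestor, so a difference does not show which line had changed. Total RNA of a pair of lines was compared on each of 10 dual-colour spotted arrays, with the first line in Cy5 and the second in Cy3. Each pair was hybridised on 1 array and each line lay on 4 arrays, 2 with each dye. Nothing in the labels says whether the 4 hybridisations of a line used RNA from separate cultures, so errors and p-values cover only how far hybridisations of these RNAs differed. Precision is limited by having 10 arrays.

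Values are taken as log2 of Cy5 over Cy3. The deposited table states neither base nor direction, and with the opposite direction every sign below would turn. The array of MA-A0 over MA-A8 stood apart from the other 9. Swapping its lines lowered the residual sum of squares over 5126 genes from 1568 to 1429, whereas swapping those of any other array raised it, and turning the sign of its centred values raised it to 1611. Its line order as labelled was kept, and results that depend on it are also given without it or with its lines swapped. A line estimate is the line minus the mean of the other 4 lines, after each array was centred on its median, with the standard error (SE) of limma's fit to all arrays. A shift in 1 line therefore lowers the estimates of the other 4 by construction. Tests are limma's moderated tests with the Benjamini-Hochberg adjustment over all 5410 genes tested, at a threshold of 0.05.

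In yeast cells that carry an extra copy of a chromosome, most genes of that chromosome are transcribed in rough proportion to the copy number, and some genes depart from it because they are also under the control of nutrients, stress or feedback. DNA content was not analysed here. Genes close to telomeres often belong to families with near-identical copies on other chromosomes, which one probe may read together.

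On the 4 arrays with MA-A3, chromosome XIII stood apart from the rest of the genome, and the side on which it lay followed the dye of MA-A3. Relative to the median of the genes on the other 15 chromosomes, the median of the members was 0.49 with MA-A3 in Cy5 against MA-A0 and 0.51 with MA-A3 in Cy5 against MA-A1. With MA-A3 in Cy3 it was -0.56 against MA-A4 and -0.70 against MA-A8. Turned to MA-A3 minus partner, the mean was 0.565 ± 0.0947 (SD, n = 4 arrays). The medians of the 15 other chromosomes on those arrays lay between -0.37 (chromosome XII, MA-A3 over MA-A1) and 0.15, so the members lay outside the other chromosomes on each. On the 6 arrays without MA-A3 the members' median was between -0.09 (MA-A1 over MA-A0) and -0.01 (MA-A8 over MA-A1), so it was negative on each. It lay just below the lowest of the other chromosomes on MA-A1 over MA-A0 (-0.09 against -0.08) and on MA-A1 over MA-A4 (-0.08 against -0.07). On the remaining arrays without MA-A3 it lay within the range of the other chromosomes. On each array with MA-A3 between 94.2% and 95.5% of the members lay on the MA-A3 side of the median of the other chromosomes, against at least 49.1% and under 50% of the genes elsewhere.

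**Figure D1:**
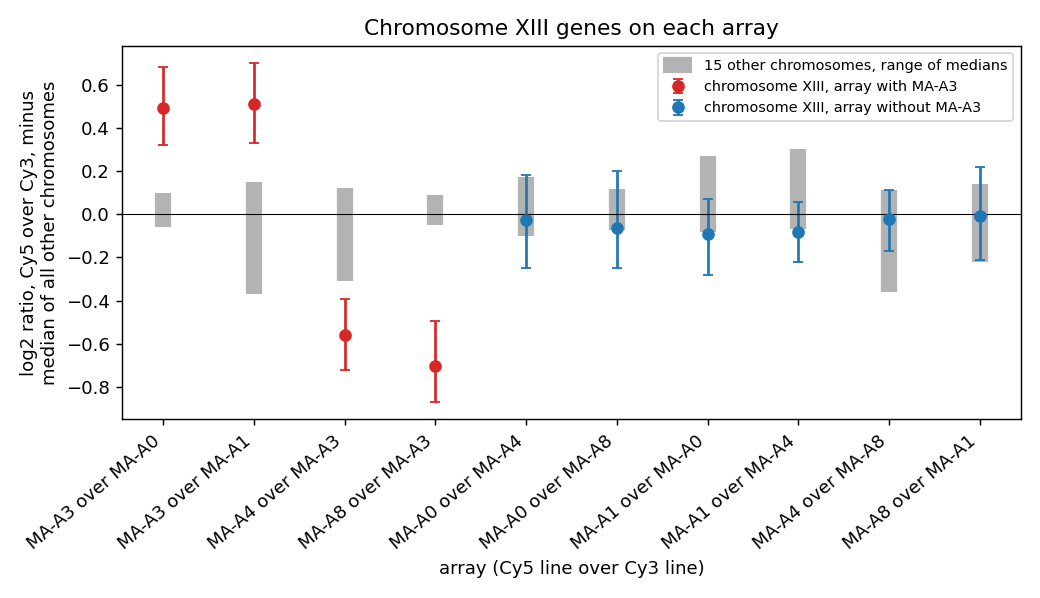
Median log2 ratio of the chromosome XIII members on each array (points, with bars from the 25th to the 75th percentile of genes), relative to the median of all genes on other chromosomes. Grey bars span the medians of the 15 other chromosomes; the members lie above them at 0.49 and 0.51 where MA-A3 is the Cy5 line and below them at -0.56 and -0.70 where it is the Cy3 line.

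The members' estimate in MA-A3 had a median of 0.54, which is a 1.46-fold difference if the base is 2, with a middle range from 0.41 to 0.66 and extremes of -1.03 and 1.43. The median of the genes on the other chromosomes was -0.03. In MA-A3 332 of 399 members passed as higher (83.2%, against 10.5% of all genes tested) and 9 as lower (2.26%, against 6.88%), in the contrast for which the chromosome was chosen. The MA-A3 side was the higher one on all 4 of its arrays for 350 members (87.7%, against 16.1% of all genes). It was the lower one on all 4 for 10 members (2.51%, against 15% of all genes), namely YML039W, YML045W, YMR045C, YMR046C, YMR050C, YMR051C, YMR158C-A, YMR321C, PHO84 and ADH2. The remaining members were split between the arrays. The median estimates of the members in the other lines were -0.12 in MA-A0, -0.16 in MA-A1, -0.10 in MA-A4 and -0.16 in MA-A8, the side that the dilution by MA-A3 gives. In MA-A0 0 members passed as higher (0.222% of all genes) and 3 as lower (0.111%), in MA-A1 2 and 23 (2.61% and 1.44%), in MA-A4 8 and 10 (1.63% and 1.9%) and in MA-A8 1 and 20 (1.26% and 2.01%). Fitted on the 6 arrays without MA-A3 alone, the members' medians were 0.02 in MA-A0, -0.04 in MA-A1, 0.03 in MA-A4 and 0.00 in MA-A8.

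Spotted arrays are often printed in gene order, so the members' places on the array were examined too. Members fell in all 16 blocks. Their rows were sought only within a fixed window of each block, where they lay between rows 289 and 336. The median MA-A3 estimate of the members within a block ranged from 0.41 to 0.66 over the 16 blocks, which held 5 to 42 members each, and relative to the other genes of the same block it ranged from 0.48 to 0.61. The 649 genes on other chromosomes that lay up to 25 rows before or after the members of that window had a median of -0.06. This comparison was added after the data were seen.

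Along the chromosome the shift was present in every bin of neighbouring genes on both arms, though not in the outermost genes, given below. The left arm had a median MA-A3 estimate of 0.52 over 121 genes and the right arm 0.55 over 278, and array by array the left and right medians were 0.51 and 0.48 against MA-A0, 0.52 and 0.51 against MA-A1, 0.52 and 0.59 against MA-A4, and 0.68 and 0.70 against MA-A8. The left arm minus the right arm, per array, was 0.03, 0.01, -0.07 and -0.02 in the same order, so its sign differed between arrays. In 26 bins of 15 neighbouring genes, the last of 24, the bin medians in MA-A3 lay between 0.35 and 0.64 and none was below 0. The lowest bin, from AIM32 to CGI121 on the left arm, holds 2 of the repeated gene pairs described below and was at 0.43 without them. The highest bin ran from YMR253C to PRP24 on the right arm. The bins of the other lines stayed between -0.28 and 0.06, with an SD over bins of 0.05 to 0.06 in each of the 5 lines.

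**Figure D2:**
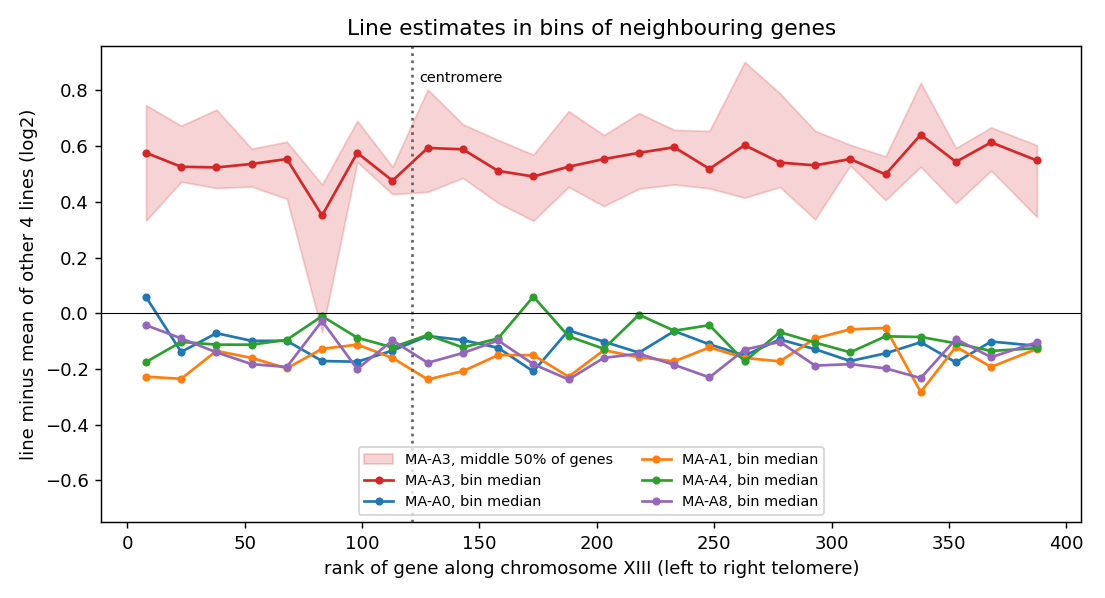
Median line estimate (log2, line minus the mean of the other 4 lines) of bins of 15 neighbouring members in rank order from the left to the right telomere, with the middle 50% of genes shaded for MA-A3. The MA-A3 bins lie between 0.35 and 0.64 along both arms, and those of the other 4 lines between -0.28 and 0.06.

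At both ends of the chromosome the outermost genes had estimates below the common level. On the left, YML133C, the outermost member, was at -0.22 ± 0.10 (SE) in MA-A3 and COS3, of a subtelomeric family of membrane protein genes, at 0.13 ± 0.09, whereas YML131W, next to them, was at 0.81 ± 0.09. On the right, PAU19, a seripauperin gene and the outermost member, was at 0.01 ± 0.14, ERR3, an enolase-related gene, at -0.09 ± 0.18 (9 arrays), SNO4 at 0.10 ± 0.14 and YMR321C at -0.27 ± 0.10. The gene next to these, FET4, which encodes the low-affinity iron transporter, was at 0.57 ± 0.10. YML133C, COS3, PAU19 and YMR321C passed the test against the chromosome described below, whereas ERR3 and SNO4 did not (adjusted p = 0.059 and 0.066). The calls of PAU19 and COS3 were lost in 7 and 3 of 17 alternative settings. COS3, YML131W, ERR3 and SNO4 were chosen after their values were seen. The families of COS3, PAU19 and ERR3 have near-identical members on other chromosomes. Whether the probes of these genes, or of YML133C, YMR321C and SNO4, also read copies elsewhere was not tested. The members nearest the centromere, YPT7, a vacuolar Rab GTPase gene on the left arm, and CDC5, the polo kinase gene on the right arm, were at 0.42 ± 0.13 and 0.53 ± 0.10. The 10 members nearest the centromere had medians of 0.45 on the left and 0.59 on the right. By gene length, medians were 0.52, 0.54 and 0.56 for the 133 shortest, 133 middle and 133 longest members, with a rank correlation of 0.03 over 399 genes, which share all arrays.

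To find the genes that departed from the common level, each array was centred on the median of each chromosome before the fit, so that a gene was compared with its own chromosome in MA-A3. By this test 28 of 399 members lay below the chromosome's level (7.02%, against 4.88% of all genes below that of their own chromosome) and 17 above it (4.26%, against 4.33%). Of the 28, 8 belong to the repeated gene pairs described below. Without those pairs 20 of 391 members lay below the chromosome's level (5.12%). The 4.88% of all genes still counts such pairs on other chromosomes, many of which also passed below, so it is not a like comparison. The other 354 did not pass, and 108 members had an unadjusted p under 0.05, against 23% of all genes. The counts depend on the rule, since of the 28 genes it leaves out 8 passed above and 2 below. Members spread around their chromosome median with an SD of 0.30. With the 28 left-out genes put back the SD was 0.34, and over the 15 other chromosomes, which keep all their genes, it ranged from 0.23 to 0.31. The median absolute deviation, scaled as an SD and less moved by a few extreme genes, was 0.19 over members. It was 0.20 with the left-out genes put back, within the 0.14 to 0.21 of the other chromosomes. Of the 28 low genes 12 lie on the left arm and 16 on the right, and of the 17 high genes 4 and 13. Without MA-A3 over MA-A0 the counts were 14 low and 7 high, without MA-A3 over MA-A1 14 and 9, and without MA-A8 over MA-A3 8 were high. Without MA-A0 over MA-A8 28 were high. None of the 45 genes changed sign in any setting run, and 18, 14 low and 4 high, passed in all 17 alternative settings with moderated variances.

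**Figure D3:**
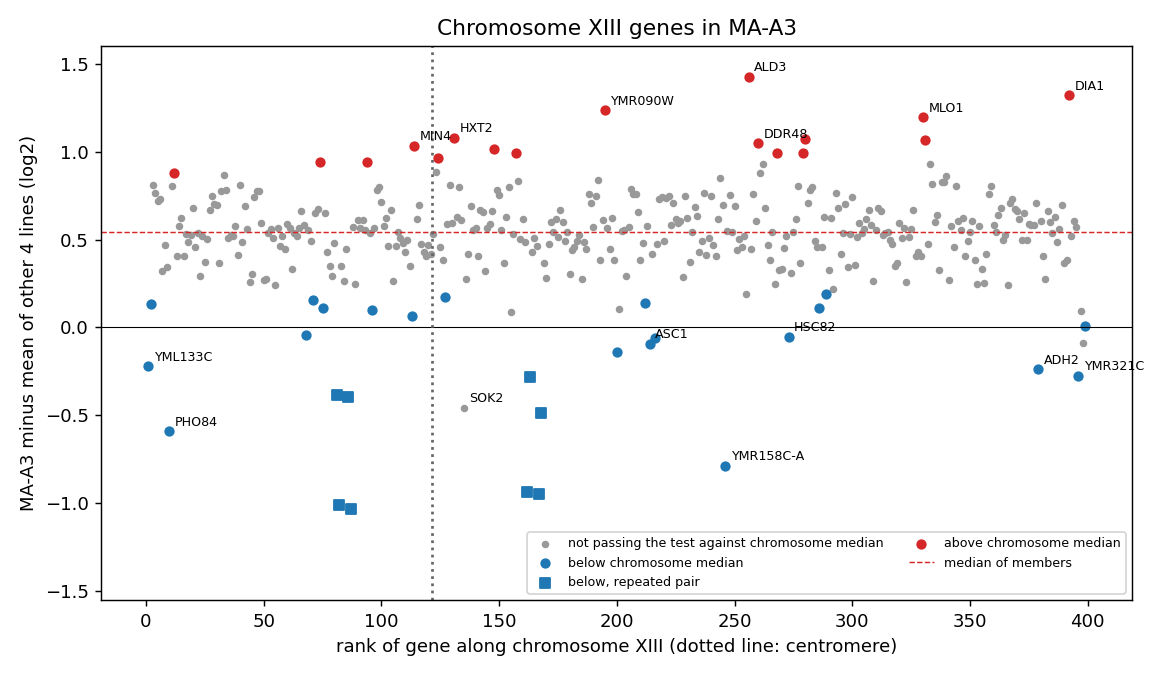
MA-A3 estimate (log2) of each of the 399 tested members in rank order along chromosome XIII. Members below the chromosome's level are blue, with the repeated pairs as squares, and members above it are red; most genes lie around the dashed median of 0.54, and 20 lie below 0.

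The 4 largest departures were those of the longer genes of 4 repeated pairs of overlapping genes, YML040W with YML039W, YML045W-A with YML045W, YMR045C with YMR046C, and YMR050C with YMR051C. In the R64 annotation the longer gene of every pair spans 5269 bases and the shorter 1323, and 24 such pairs lie on 10 chromosomes. Pairs were recognised by these lengths after the values were seen. YML039W was at -0.47 against MA-A0, -0.44 against MA-A1, -2.11 against MA-A4 and -1.10 against MA-A8, and its estimate was -1.03 ± 0.13, a distance of -1.57 ± 0.13 from the chromosome's level (adjusted p = 4.49e-06). YML045W was at -0.72, -0.54, -1.78 and -1.0 on the same arrays, in the same order, with an estimate of -1.01 ± 0.12 (adjusted p = 3.04e-06 against the chromosome). Both were lower in MA-A3 on each array, and lowest on the array against MA-A4. YMR050C and YMR045C, the longer genes of the right-arm pairs, had estimates of -0.94 ± 0.14 and -0.94 ± 0.12. The shorter genes were less far down, at -0.49 ± 0.10 for YMR051C, -0.40 ± 0.09 for YML040W, -0.38 ± 0.11 for YML045W-A and -0.28 ± 0.11 for YMR046C. YML040W and YML045W-A were slightly higher in MA-A3 on the array against MA-A1, at 0.14 and 0.06.

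Levels of the pairs on chromosome XIII overlapped those of the pairs on other chromosomes. The longer genes had a median of -0.98 on chromosome XIII (n = 4, from -1.03 to -0.94) and of -0.99 elsewhere (n = 19, from -1.28 to -0.85). For the shorter genes the medians were -0.39 (n = 4) and -0.40 (n = 20). In MA-A4 the medians of all genes of the pairs were 0.54 on chromosome XIII (n = 8) and 0.47 elsewhere (n = 39), and in MA-A8 0.28 and 0.32. The single genes on either side of the 4 pairs carried the common shift, from 0.35 ± 0.11 at RRN11 to 0.57 ± 0.11 at YMD8. Since probes may read every copy of a repeated gene, the values of the pairs are not independent of each other.

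**Figure D4:**
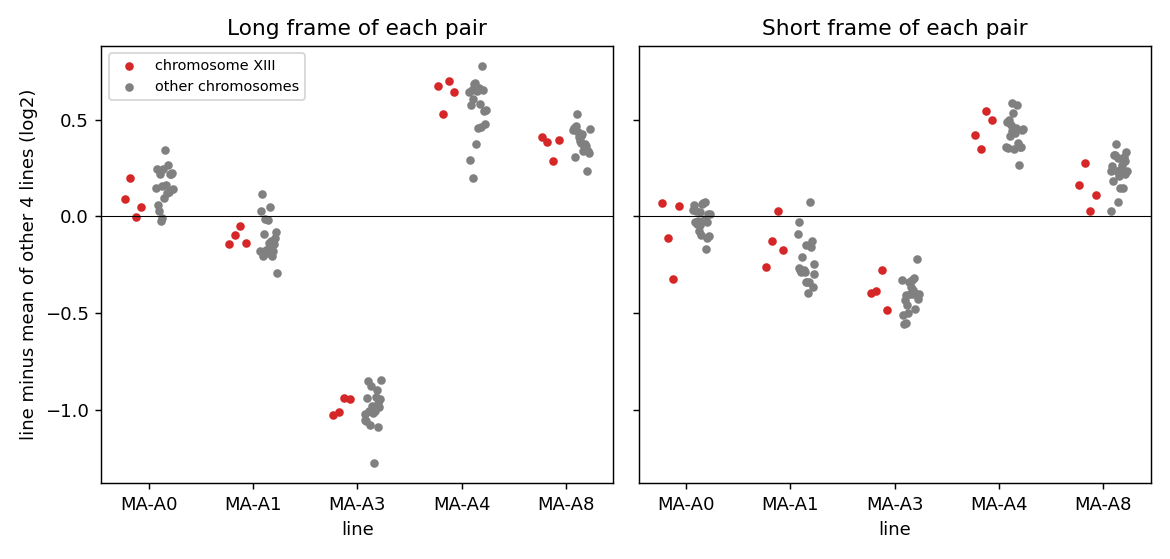
Line estimates (log2) of the longer (left) and shorter (right) gene of each repeated pair, on chromosome XIII (red) and on other chromosomes (grey). In MA-A3 the longer genes on chromosome XIII lie from -1.03 to -0.94 and those elsewhere from -1.28 to -0.85, so the red and grey points overlap.

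Of single genes, PHO84, which encodes the high-affinity phosphate transporter and is switched on when phosphate is scarce, lay furthest below the chromosome among those with a known role. Its values were -0.23 against MA-A0, -0.35 against MA-A1, -1.21 against MA-A4 and -0.56 against MA-A8. MA-A3 was thus the lower line on every array, with an estimate of -0.59 ± 0.10 and a distance of -1.13 ± 0.10 from the chromosome's level (adjusted p = 7.59e-06). PHO84 overlaps an annotated noncoding gene, YNCM0001W, and a spotted probe may not tell them apart. YMR158C-A, a short annotated gene, was at -0.79 ± 0.14 (adjusted p = 2.27e-05 against the chromosome), with values of -0.56, -0.64, -1.34 and -0.61 on the 4 arrays. ADH2, the glucose-repressed alcohol dehydrogenase that consumes ethanol, was at -0.16, -0.31, -0.41 and -0.07, with an estimate of -0.24 ± 0.12 and a distance of -0.78 ± 0.11 (adjusted p = 0.000457). These 3 genes thus stood not only below their chromosome but below 0 on each array with MA-A3.

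Other low genes lay near 0 in MA-A3. ASC1, whose product is a WD-repeat protein of the small ribosomal subunit and which was chosen after its values were seen, was at -0.09 ± 0.10 (distance -0.63 ± 0.10, adjusted p = 0.00115). HSC82, the constitutive Hsp90 chaperone gene, was at -0.05 ± 0.14 (distance -0.59 ± 0.13, adjusted p = 0.012). HUG1, a small DNA-damage-induced gene that acts on ribonucleotide reductase, was at -0.04 ± 0.14, and SNO1, a vitamin B6 synthesis gene, at -0.14 ± 0.16. Both also differed among the other lines, as described below. HSC82, HUG1 and SNO1 no longer passed without MA-A3 over MA-A0 (adjusted p = 0.0604, 0.159 and 0.164) or without MA-A3 over MA-A1 (0.15, 0.2 and 0.0621). SOK2, a transcription factor gene named here after its values were seen, had a low estimate of -0.46 ± 0.41 that came from 1 array. It was at 0.61, 0.33 and 0.51 against MA-A0, MA-A1 and MA-A8 and at -3.27 against MA-A4, and did not pass (adjusted p = 0.153).

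Above the chromosome's level, ALD3, a cytoplasmic aldehyde dehydrogenase gene induced by stress, had the highest estimate. Its values were 1.23 against MA-A0, 0.91 against MA-A1, 1.95 against MA-A4 and 1.62 against MA-A8. The estimate was 1.43 ± 0.12 and the distance from the chromosome 0.88 ± 0.12 (adjusted p = 0.000245), and the neighbouring, very similar ALD2 may share its probe signal. DIA1, a gene tied to invasive growth, was at 1.48, 1.02, 1.64 and 1.15 (estimate 1.32 ± 0.11, distance 0.78 ± 0.11, adjusted p = 0.000371). It overlaps another annotated gene, YMR316C-A. YMR090W was at 0.88, 0.90, 1.30 and 1.87 (estimate 1.24 ± 0.09, adjusted p = 0.000241 against the chromosome) and MLO1 at 0.94, 1.06, 1.02 and 1.77 (estimate 1.20 ± 0.10, adjusted p = 0.000638). Every one of these values lay above the members' median on its array, and for YMR090W and MLO1 the array against MA-A8 was the highest. HXT2, the high-affinity hexose transporter gene, was at 1.08 ± 0.13 and DDR48, a stress protein gene, at 1.05 ± 0.12, with distances of 0.54 ± 0.13 and 0.50 ± 0.12 (adjusted p = 0.0195 and 0.014). EIS1, of the membrane furrows called eisosomes, YET2, an endoplasmic reticulum membrane protein gene, MIN4, YMR181C, YMR196W and YMR253C were at 0.99 to 1.07. The calls of HXT2, DDR48, EIS1 and YMR196W ended both without MA-A8 over MA-A3 (adjusted p = 0.0644, 0.149, 0.14 and 0.189) and without MA-A3 over MA-A0 (0.247, 0.0627, 0.0674 and 0.0726). The call of HXT2 also ended without MA-A4 over MA-A3 (0.137), and with the lines of MA-A0 over MA-A8 swapped the calls of HXT2, HUG1 and HSC82 ended (0.113, 0.0666 and 0.0606).

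**Figure D5:**
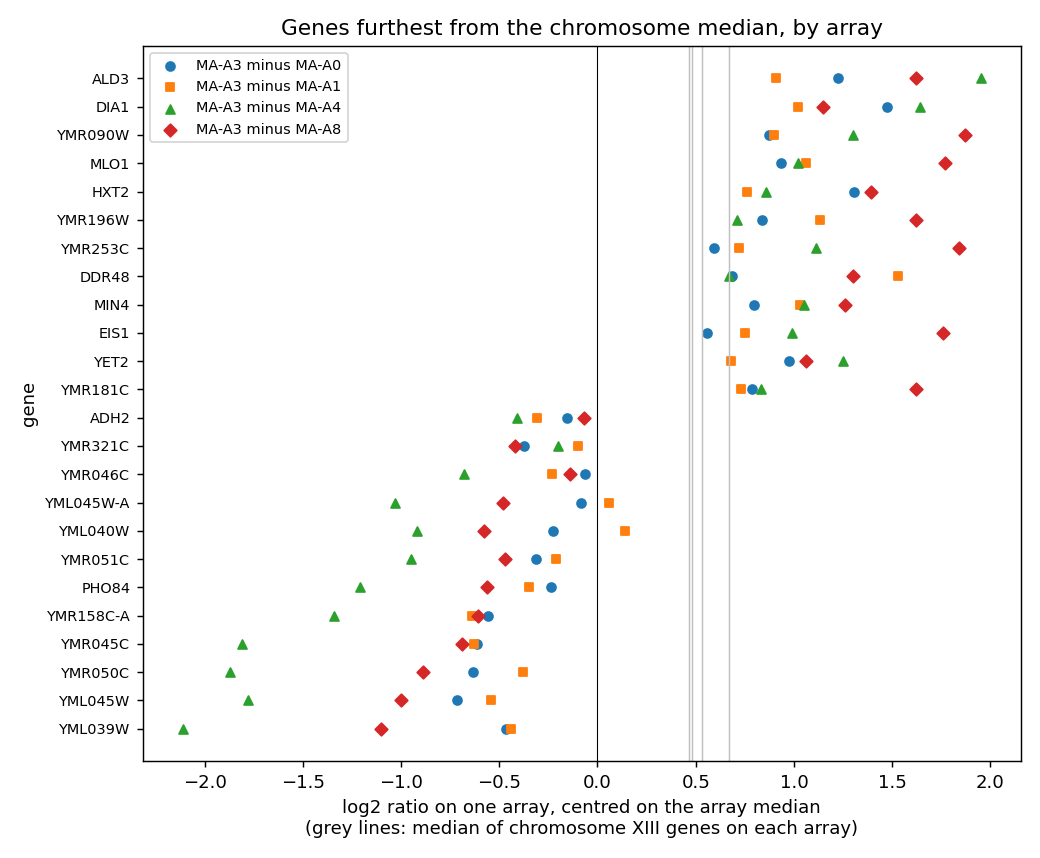
Log2 ratio of MA-A3 to its partner on each of its 4 arrays, centred on the array median, for the 12 members furthest above and the 12 furthest below the chromosome's level. Vertical grey lines mark the median of the members on each array; the array against MA-A4 gives the lowest value for 11 of the 12 low genes.

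Genes were then grouped by function. The 12 lists hold 101 members, 96 of them tested, and 10 passed below and 4 above the chromosome's level. The shares to set beside these counts and those of each list are 4.88% below and 4.33% above for all genes, and 7.02% and 4.26% for all tested members. Outside the repeated pairs 5.12% of the members were below, whereas the share of all genes still counts such pairs. At such shares a list of this size would hold few calls or 0, so a count of 0 is not read as a result about a list. All medians below are MA-A3 estimates, to be set beside 0.54 for all tested members and -0.01 for all genes tested.

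Regulators of transcription and of the cell cycle come first. Of 6 subunits of TFIID, a complex that brings polymerase to promoters, 6 were called higher in MA-A3 than in the other lines. That call was made for 83.2% of all tested members and 10.5% of all genes, so it is not read as a result about this list. By limma's adjusted test 0 of the 6 departed from the chromosome (median 0.54), with TAF8 at 0.53 ± 0.12. TAF13 read 0.87 ± 0.19, with 1.98 on the array against MA-A4 and 0.23 to 0.85 on the others. Of 13 transcription factor genes 0 departed (median 0.56). Among them were MSN2, the activator of the general stress response, at 0.80 ± 0.11, ARG81, a regulator of arginine metabolism, at 0.77 ± 0.09, and MOT3 at 0.44 ± 0.10. Of 10 cell cycle and cytoskeleton genes 0 departed (median 0.53), from TUB1 at 0.26 ± 0.13 and TUB3 at 0.34 ± 0.10, the paired alpha-tubulin genes, to the G1 cyclin gene CLN1 at 0.80 ± 0.12. TEM1, the GTPase gene of mitotic exit, was at 0.52 ± 0.09. The 3 nuclear pore genes NUP188, NUP116 and NDC1 were at 0.75 ± 0.10, 0.43 ± 0.10 and 0.55 ± 0.10. Of 9 genome maintenance genes 1, HUG1, was below the chromosome (median 0.55), whereas MRE11 and RAD10, of double-strand break and nucleotide excision repair, were at 0.58 ± 0.10 and 0.52 ± 0.10, and the origin-binding ORC1 at 0.54 ± 0.10.

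Among metabolic groups, of 6 ergosterol genes 2 were below the chromosome and 0 above, and the list's median was 0.27. The 2 were ERG6 and ERG2: ERG6, the sterol methyltransferase, was at 0.06 ± 0.10 and ERG2, the sterol isomerase, at 0.11 ± 0.11 (distances -0.48 ± 0.10 and -0.43 ± 0.10, adjusted p = 0.00715 and 0.0156). Both calls ended without MA-A3 over MA-A0 (0.0599 and 0.0714) and without MA-A3 over MA-A1 (0.0558 and 0.177), that of ERG6 also without MA-A8 over MA-A3 (0.0644) and that of ERG2 without MA-A4 over MA-A3 (0.0777). ERG5, another gene of this pathway, is left out by the rule and was at 0.74 ± 0.09, so the list is not complete. ERG12, mevalonate kinase, was at 0.22 ± 0.10 and ERG13, the HMG-CoA synthase gene, at 0.32 ± 0.10. In carbon metabolism 2 of 5 were below the chromosome and 1 above (median 0.27). ADH2 and PFK2, a phosphofructokinase subunit gene (0.19 ± 0.10), were the low ones and HXT2 the high one. The call of PFK2 was lost in 6 of 17 settings, among them without MA-A4 over MA-A3 (adjusted p = 0.221) and without MA-A3 over MA-A1 (0.239). CAT2, carnitine acetyltransferase, was at 0.27 ± 0.10. Of 11 amino acid and nucleotide genes 2 were below and 0 above (median 0.41). These were SNO1 and IMD4, an IMP dehydrogenase gene at 0.15 ± 0.09, whose call was lost without each of the 4 arrays with MA-A3 (adjusted p = 0.0677 to 0.142). ADI1, of methionine salvage, was at 0.81 ± 0.12. The IMP dehydrogenase genes are near-identical, so the reading of IMD4 is uncertain. PHO84 was the 1 low gene among 7 of metal and phosphate homeostasis (median 0.52), where FET4 and MMT1, a mitochondrial metal transporter gene, were at 0.57 ± 0.10 and 0.47 ± 0.09. CCS1, a copper chaperone gene, was at 0.09 ± 0.14 and its distance just missed the threshold.

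Of 13 stress and protection genes 2 were above the chromosome and 1 below, with a median of 0.79. ALD3 and DDR48 were the high ones and TSA1, the main cytosolic peroxiredoxin gene, the low one at 0.10 ± 0.11. The call of TSA1 was lost without each of the 4 arrays with MA-A3 (adjusted p = 0.0656 to 0.166) and without the dye term (0.171). PAI3, a proteinase A inhibitor gene, was at 0.88 ± 0.13. Several genes of this kind are among those left out by the rule, so the list is not complete. Of 7 genes of respiration and the mitochondrial genome 1 was above the chromosome, RCF1, a respiratory supercomplex factor gene, at 0.94 ± 0.10 (median 0.60). NDE1, NDI1 and CYB2, respiratory genes left out by the rule, also passed above the chromosome, at distances of 0.62 ± 0.11, 0.48 ± 0.11 and 0.68 ± 0.13, so this list is not complete either. The call of RCF1 was lost without MA-A3 over MA-A0, MA-A3 over MA-A1 or MA-A8 over MA-A3 (adjusted p = 0.206, 0.0719 and 0.163). COX7, a cytochrome oxidase subunit gene, was at 0.93 ± 0.15, AAC1, the minor ADP/ATP carrier gene, at 0.60 ± 0.11 and ABF2, which packages mitochondrial DNA, at 0.49 ± 0.09. Of 6 proteasome and folding genes 1, HSC82, was below (median 0.39), with PRE5 of the proteasome at 0.37 ± 0.10, SCJ1, an ER chaperone, at 0.35 ± 0.14 and the ER oxidase ERO1 at 0.77 ± 0.12.

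Over all 5 lines, the test of any difference after centring within chromosomes passed 42 of 399 members (10.5%, against 9.93% of all genes). In the lines other than MA-A3 fewer members departed from their chromosome than in MA-A3. With the left-out genes put back, 1.17% of 427 chromosome XIII genes departed in either direction in MA-A1, 2.81% in MA-A4 and 5.15% in MA-A8. The highest share on another chromosome was 2.86% (VIII), 4.49% (XII) and 4.49% (V) in the same order, so in MA-A8 chromosome XIII had the highest share. In MA-A0 0 members passed above and 0 below by limma's test (against 0.0739% and 0.037% of all genes), with 56 members at an unadjusted p under 0.05 (of 399, against 14.2% of all genes). In MA-A1 4 passed above (0.351% of all genes) and 1 below (0.444%). SNO1 and SNZ1, adjacent genes for vitamin B6 synthesis, were 1.05 ± 0.17 and 0.99 ± 0.14 above the chromosome's level (adjusted p = 0.0119 and 0.00681), together with RGM1 (0.53 ± 0.10) and YML133C (0.46 ± 0.10). DDR48 was 0.83 lower, at -0.83 ± 0.12 (adjusted p = 0.00681). In MA-A4 10 passed above (1.46% of all genes) and 2 below (1.26%). The 10 were all 8 genes of the repeated pairs, PHO84 (0.60 ± 0.10, adjusted p = 0.00617) and ASC1 (0.47 ± 0.10), and the 2 were HUG1 (-0.63 ± 0.15) and YML133C (-0.43 ± 0.10). In MA-A8 11 passed above (1.16% of all genes), 4 of them genes of the repeated pairs, and 5 below (1.53%). Of the genes left out by the rule, 6 more passed below in MA-A8. HUG1 (1.04 ± 0.15, adjusted p = 0.00269), HSC82 (0.67 ± 0.13) and YMR158C-A (0.64 ± 0.13) were highest and HXT2 (-0.70 ± 0.13), YMR090W (-0.49 ± 0.09) and ICY1 (-0.45 ± 0.10) lowest. Because lines are set against each other, a gene low in MA-A3 is raised in the other lines by construction, by the same amount in each. For YML039W, the lowest gene, the distances were unequal, at 0.79 in MA-A4, 0.565 in MA-A8, 0.20 in MA-A0 and 0.02 in MA-A1. Most calls in MA-A4 and MA-A8 fell on genes that also departed in MA-A3. Of the 28 genes low in MA-A3, 10 passed above and 2 below in MA-A4, and 10 passed above in MA-A8. Of the 17 high in MA-A3, 5 passed below in MA-A8. In MA-A1 2 of the 28 passed above and 1 of the 17 below. How much of each call in these lines is such a rise was not tested. Without MA-A4 over MA-A3, 2 members passed in MA-A4 in place of 12. Without MA-A8 over MA-A1, 0 passed in MA-A8 and 0 in MA-A1, and MA-A1 also had 0 without MA-A1 over MA-A0, MA-A1 over MA-A4 or MA-A3 over MA-A1. In MA-A8 the count was 4 without MA-A4 over MA-A8, 8 without MA-A1 over MA-A4, 9 without MA-A8 over MA-A3 or MA-A3 over MA-A1, and 10 without MA-A3 over MA-A0. Without MA-A1 over MA-A4, MA-A4 had 5. MA-A0 had 1 without MA-A4 over MA-A3. With the lines of MA-A0 over MA-A8 swapped, MA-A0 had 44 and MA-A8 0. Without MA-A0 over MA-A8, MA-A0 had 31 and MA-A1 10, and MA-A1 also had 10 without MA-A0 over MA-A4.

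The 6 arrays without MA-A3 were not used in choosing the chromosome and compare MA-A0, MA-A1, MA-A4 and MA-A8 alone. There 9 of 376 members differed among these 4 lines by limma's moderated F test (2.39%, against 3.49% of all 5136 genes with 6 values), and 41 at an unadjusted p under 0.05 (10.9%, against 14.5%). The members' shares were below the background, but this depends on the rule. NDE1, TSL1, GAD1, PGM2, HOR7 and MSC1, which it leaves out, passed this F test (adjusted p = 0.00789 to 0.0414). They count in the background and not among the members. For HUG1, MA-A8 exceeded MA-A1 by 1.26 and MA-A4 fell below MA-A8 at -1.34, while MA-A0 minus MA-A8, from the array that stood apart, was -0.16. SNO1 was higher in MA-A1 than in MA-A0 by 1.11, and than in MA-A4 by 0.79, and MA-A8 minus MA-A1 was -0.90. SNZ1 ran beside it at 0.81, 0.92 and -0.90. GCV2, a glycine decarboxylase subunit gene, was lower in MA-A1 than in MA-A4 (-0.97) and higher in MA-A4 than in MA-A8 (0.95). DDR48 was lower in MA-A1 than in MA-A0, MA-A4 and MA-A8, at -0.68, -0.84 and, as MA-A8 minus MA-A1, 0.90. The other 4 that passed were HSC82, HXT2, YML133C and YMR027W, the last named outside the rule. This fit has 2 residual degrees of freedom and a single variance shared by all genes, and 3 members passed with the lines of MA-A0 over MA-A8 swapped. None (0 members) passed without the dye term, with the sign of MA-A0 over MA-A8 turned or with unmoderated variances.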

How the data were processed

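The authors deposited 1 value per probe row and array for 7744 rows, read here as log2 ratios of Cy5 to Cy3, and the array medians ran from -0.84 to 0.41, so the deposited values had not been centred. For scanner, background treatment and normalization, the sources used here name nothing. Gene names came from the platform annotation (6116 rows), and 6111 rows matched the R64 gene table, used for symbols, order and gene span only. Rows without a name were left out.

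With limma 3.58.1 in R 4.3.3, each gene's array values were fitted with line terms and a dye term, which left 5 residual degrees of freedom (2 with the 6 arrays without MA-A3) and a prior of 8.87. Median residual SD was 0.204. Distances from the chromosome used values centred on each chromosome's median per array. Members and lists were chosen with earlier results of these data known. Genes named are the 12 lowest and 12 highest passing against the chromosome, the 6 highest and 6 lowest estimates, the top 5 of the 4-line test, up to 3 in each direction of the other lines, the members at ends and centromere, and up to 4 per list, and exceptions are stated. Alternatives covered centring, dye term, variance moderation, array left out, the sign and line order of MA-A0 over MA-A8, and bin size.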

Additional observations from a re-analysis of the deposited data

Results flagged for a closer look

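For 25 members with large departures the 4 arrays with MA-A3 were searched for a single array far from the others, by Dixon's ratio of the gap to the range, whose 95% critical value for 4 values is 0.829. Among replicate values chance flags about 1 in 20. Each of these 4 arrays has a different partner line, so that rate need not apply here. Of the 25 members 4 exceeded the critical value. The ratio was 0.937 for YMR045C and 0.892 for YMR158C-A, in both of which the array against MA-A4 was the low one, at -1.81 and -1.34, with the others from -0.69 to -0.61 and from -0.64 to -0.56. It was 0.888 for YMR181C and 0.85 for MLO1, in both of which the array against MA-A8 was the high one, at 1.62 and 1.77, with the others from 0.73 to 0.83 and from 0.94 to 1.06. What set these arrays apart was not tested.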

How the results depend on the processing

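Each array value compares 2 lines on the same array, and the fit used it in that form. No pair of lines was replicated, because each pair shared only 1 array, and the labels give no replicate numbers. The direction of the MA-A3 shift was the same in all 22 alternatives run. Without centring, 51 members were called higher in MA-A3, and the members' median was 0.165 in MA-A0 (opposite in sign) and -0.30 in MA-A1, as array medians then enter the estimates. For members departing from the chromosome, without the dye term MA-A1 had 3, MA-A4 4 and MA-A8 5. With unmoderated variances MA-A3 had 16 lower and 8 higher, MA-A0 1, and MA-A1, MA-A4 and MA-A8 0 each. With a robust prior MA-A0 had 2, and with the sign of MA-A0 over MA-A8 turned it had 27 and MA-A1 3. With the lines of that array swapped, an alternative added after the data were seen that lowered the residual sum of squares, MA-A0 had 44, MA-A8 0 and the 4-line test 3. Without the repeated pairs MA-A4 had 4. Among the 4 lines without MA-A3, 0 members passed without the dye term, with unmoderated variances or with that sign turned. In bins of 25 genes the lowest median was 0.48. Leaving out 1 array at a time gave a median of 0.51 to 0.56 in MA-A3, 256 to 346 members called higher, and departures from the chromosome of 14 to 39 lower and 7 to 28 higher in MA-A3, 0 to 31 in MA-A0, 0 to 10 in MA-A1, 2 to 16 in MA-A4 and 0 to 19 in MA-A8. The cause of these changes was not tested. Signal over background was not analysed here, so dim probes could not be set aside.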
